A study of Mus musculus with 14 samples.

Results

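The lungs of mice given fired carbon fibre (RCF) were compared with the lungs of mice given carbonized carbon fibre (CCF), array against array and not through the vehicle group. The comparison takes 6 of the 14 arrays of the study, 3 RCF and 3 CCF, chosen by their titles alone. All animals were male C57BL/6N mice, and the fibre groups received 200 µg per mouse into the trachea. Whole-lung RNA was taken 1 month later, with 1 array per animal. RCF is the fibre after a firing step, CCF is the fibre after carbonization, and 5 control mice given PBS, the vehicle, supply a level to set beside both. The other 3 arrays, of mice given VCF, the fibre before recycling, enter the fit, the filter and the pairs of arrays but are not compared here. The animals' age and the dimensions of the fibres are not given in the sources used here. Since whole lung was measured, fewer cells of a type and less RNA per cell cannot be told apart.

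Carbon fibre composites are recycled by heating, which burns off the resin and leaves the fibre. A fibre that reaches the alveoli is met first by alveolar macrophages, which engulf it and release chemokines. Neutrophils follow from the blood along gradients of chemokines read by the receptor CXCR2, and carry large stores of the calcium-binding proteins S100A8 and S100A9 (calprotectin) and of matrix-degrading enzymes. Most lung cells are out of the cell cycle, so that mitotic transcripts come from a small dividing fraction.

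Signals were expressed as log2 of the processed signal minus the 75th percentile of the array, so that 0 is the 75th percentile and a difference of 1 is a doubling. Sftpc, the surfactant protein gene of alveolar type 2 cells, stood at 7.66 to 8.42 on the 6 arrays, and Scgb1a1, the club cell secretoglobin, at 7.55 to 8.21, as lung tissue has them. The 75th percentile of intensity ran from 375.3 to 2953 over the RCF arrays and from 322.7 to 1616 over the CCF arrays, RCF 1 and CCF 2 being the dim ones. Between 59% and 70% of probes were above background on the RCF arrays, and between 48.6% and 58.1% on the CCF arrays. RCF 1 stood on slide 1 with CCF 1 and 2, CCF 3 on slide 2 and RCF 2 and 3 on slide 3. Slide 1 was thus the only slide with both fibres and the within-slide difference is RCF 1 minus the mean of CCF 1 and 2. Controls stood on all 3 slides, and a fit with slide as a fixed block, which draws on them, is given among the alternatives.

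Some arrays of the same group lay close together although on different slides. Over 35 genes of tissues that border the lung (muscle, fat, cartilage, squamous epithelium and others), the median absolute log2 difference was 0.20 between RCF 1 and RCF 2, which stood on different slides. It was 0.167 between control 1 and control 4, also on different slides, and these were the 2 smallest values of 91 pairs of arrays. The next pair stood at 0.252 and the median pair at 0.683. Over the 19795 genes above background on all arrays RCF 2 and RCF 3, neighbours on slide 3, were the closest pair at 0.141. Control 4 and control 5, which shared a slide, had rank 2 at 0.169. Control 1 and control 4 had rank 3 at 0.172, and RCF 1 and RCF 2 rank 6 at 0.221. Among pairs on different slides control 1 with control 4 and RCF 1 with RCF 2 were again the closest. The next such pair, control 1 and control 3, stood at 0.235. The labels describe all samples as independent animals, and whether 2 of these arrays hold one RNA was not tested. The main results are given also with RCF 1 and 2 averaged into 1 array and control 1 and 4 into another, a setting chosen after seeing the data.

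**Figure D1:**
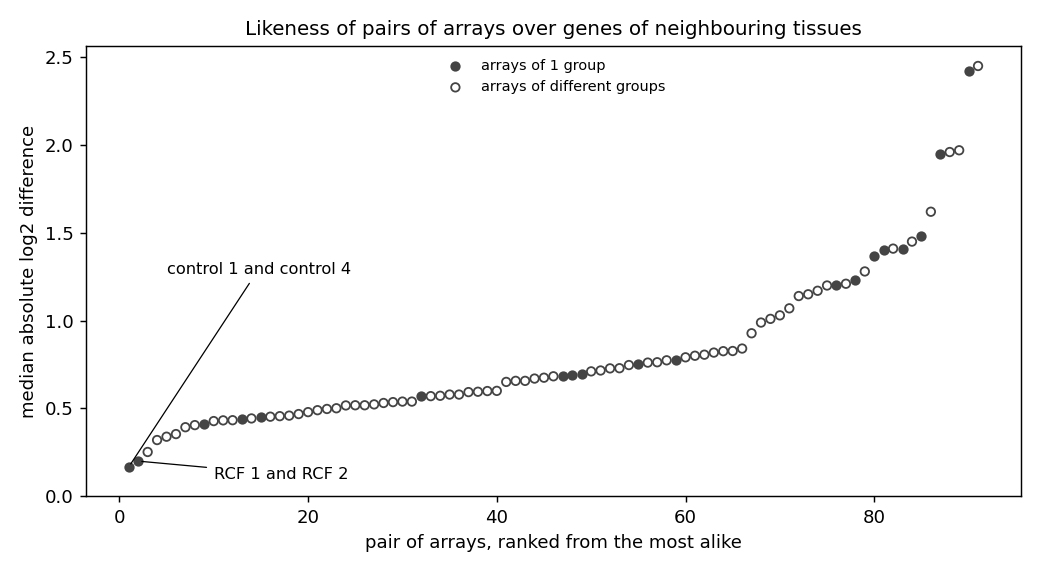
Median absolute log2 difference between 2 arrays over 35 genes of tissues that border the lung (vertical axis), for all 91 pairs ranked from the most alike (horizontal axis). Filled points are pairs within 1 of the 4 groups and open points pairs across groups; RCF 1 with RCF 2 (0.20) and control 1 with control 4 (0.167) are the lowest.

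Of 30574 genes tested, 1 passed limma's threshold of an adjusted p under 0.05, and it was higher in RCF (0.00327% of genes); 0 were lower. At an unadjusted p under 0.05 there were 2831 genes (9.26%), 1797 higher in RCF (5.88%) and 1034 lower (3.38%). The 3 RCF arrays lay wholly above the 3 CCF arrays for 2690 genes (8.8%) and wholly below them for 2174 (7.11%), and the median difference over all genes was 0.04. The gene that passed is the probe A_55_P2720570, which has no symbol in the annotation used. Its level was −4.28, −4.03 and −3.74 in RCF lungs, against −5.38, −5.49 and −5.18 in CCF lungs. The RCF arrays lay in the range of the 5 controls (−4.06 to −3.81) or just outside it, and the CCF arrays below it. The difference was 1.34 ± 0.15 (limma's standard error, n = 3 against 3, adjusted p = 0.0483). It was above background on 2 RCF arrays and on 1 CCF array, so the level is a faint one. The call was lost with slide as a fixed block (limma adjusted p = 0.253) or a random one (0.0645), with the 6 arrays alone (0.416) and without any single array other than RCF 1 or RCF 3, where the adjusted p went up to 0.433. With RCF 1 and 2 and control 1 and 4 averaged no gene passed, and 2303 had an unadjusted p under 0.05 by limma. Since no named gene passed, the differences below are sizes with their errors, and none of them is a call. Stfa2, Clec4d, Csf3r, Camp, Ltf, Ngp, Alb, Ambp, Bhmt, Mki67, Ccnb1, Birc5, Sftpc and Scgb1a1 were named after their values were seen, and the other genes by a fixed rule.

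Neutrophil genes stood higher in RCF lungs. Of 19 neutrophil markers 18 were measured, and 8 of them were higher at an unadjusted p under 0.05 (5.88% of all genes) and 0 lower (3.38%). These 8 had RCF arrays wholly above the CCF arrays (8.8% of all genes). The list's median difference was 0.79, a 1.73-fold difference, beside 0.04 over all genes. S100a8 and S100a9 encode the subunits of calprotectin and sit next to each other on mouse chromosome 3. S100a8 was at 4.98, 5.08 and 3.49 in RCF lungs and at 2.95, 2.03 and 2.70 in CCF lungs. The lowest RCF array, RCF 3, was above the highest CCF array, but closer to it than to RCF 1 and 2. The means were 4.51 ± 0.89 in RCF and 2.56 ± 0.47 in CCF (SD, n = 3 each), against 4.41 ± 0.29 in control (SD, n = 5). The difference of 1.95 ± 0.40 (3.87-fold) had a limma adjusted p of 0.402.

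S100a9 was at 6.93, 6.78 and 5.70 in RCF lungs, against 5.09, 4.27 and 4.89 in CCF lungs. The groups did not overlap, RCF 3 again being the low array, and the difference was 1.72 ± 0.33 (3.30-fold, limma adjusted p = 0.402). Its control mean was 6.43 ± 0.28 (SD, n = 5), close to the RCF mean of 6.47 ± 0.67 (SD, n = 3). For both genes all 3 CCF arrays lay below the 5 controls, while RCF arrays lay on either side of the control range. With RCF 1 and 2 averaged, the differences were 1.70 for S100a8, 1.53 for S100a9 and 2.42 for Cxcr2 (limma adjusted p = 0.632 each).

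Cxcr2, the receptor that draws neutrophils toward CXC chemokines, was at −0.55, 0.08 and −0.76 in RCF lungs, against −2.92, −3.43 and −2.40 in CCF lungs. Here RCF 3 lay with the other RCF arrays, and the difference was 2.51 ± 0.59 (5.69-fold, limma adjusted p = 0.402), the greatest among the 18 markers. Retnlg, a resistin-like protein secreted by mouse neutrophils, was at 1.80, 2.22 and 1.51 in RCF lungs, against 0.48, −0.40 and 0.60 in CCF lungs. Its difference was 1.62 ± 0.34 (3.07-fold), with no overlap. Control means were −0.66 ± 0.85 for Cxcr2 and 1.92 ± 0.23 for Retnlg (SD, n = 5), near the RCF means of −0.41 and 1.85. The within-slide differences of S100a8, S100a9, Cxcr2 and Retnlg were 2.49, 2.25, 2.63 and 1.76.

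Among the enzymes, Mmp8, the neutrophil collagenase, differed by 1.32 ± 0.35 and Mmp9, the gelatinase of tertiary granules, by 1.48 ± 0.51, neither with overlap. Stfa2, a stefin-type inhibitor of cysteine proteases, was at −0.39, −0.28 and −2.20 in RCF lungs, against −2.46, −3.54 and −2.72 in CCF lungs, which puts RCF 3 just above the CCF arrays. Clec4d, a C-type lectin receptor of myeloid cells, showed the same layout, at 1.54, 1.30 and −0.17 in RCF lungs and −0.36, −0.88 and −0.49 in CCF lungs.

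The remaining 10 markers had unadjusted p-values above 0.05 and overlapping groups, 4 with positive and 6 with negative differences. Csf3r, the receptor for granulocyte colony-stimulating factor, differed by −0.06 ± 0.30 (95% interval −0.71 to 0.60) and Lcn2, a siderophore-binding protein, by −0.19 ± 0.23 (−0.68 to 0.30). The granule genes Camp, Ltf and Ngp, transcribed mainly in immature cells, differed by −0.70 ± 0.98, −0.77 ± 1.23 and −1.24 ± 1.35, each with a standard error above the size of the difference. Relative to the control mean, the median of the 18 markers was 0.54, 0.34 and −0.73 on RCF 1 to 3, against −0.69, −1.15 and −0.76 on CCF 1 to 3. RCF 3 thus lay within the CCF range on this measure, and RCF 1 and 2 above it. Over the same list the log2 of the summed signal ran from 7.47 to 8.11 in RCF, from 7.09 to 7.40 in CCF and from 7.58 to 8.03 in control.

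**Figure D2:**
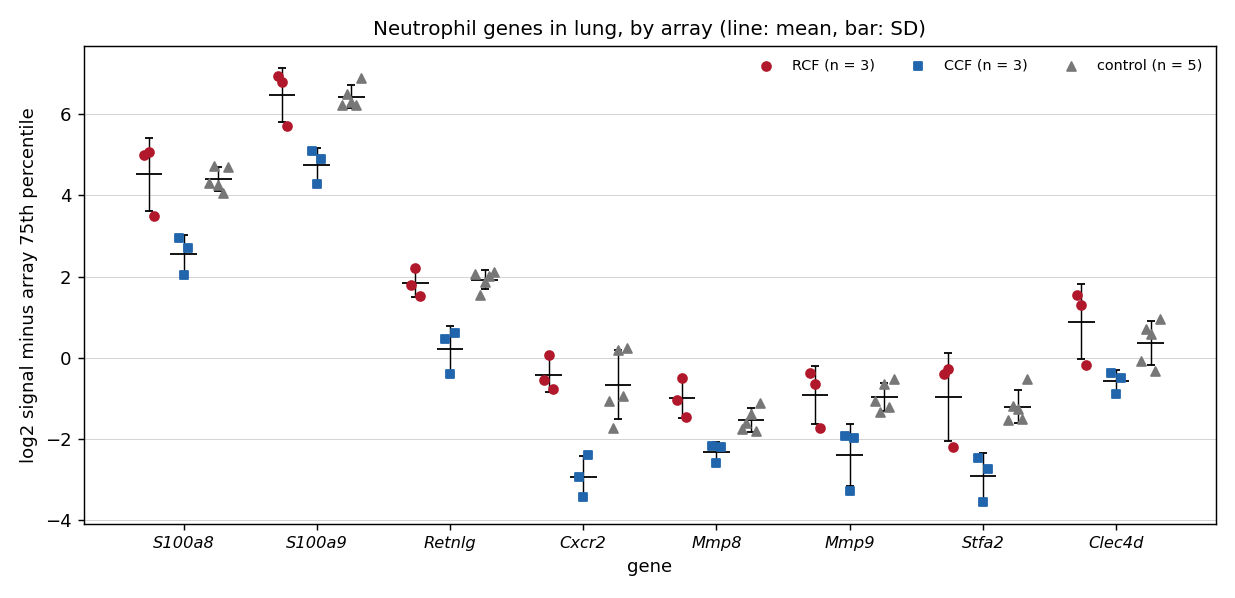
Level of 8 neutrophil genes (horizontal axis) as log2 signal minus the array's 75th percentile (vertical axis) in RCF (n = 3), CCF (n = 3) and control lungs (n = 5); points are arrays, lines means and bars SD. For all 8 genes the RCF arrays lie above the CCF arrays, S100a8 at 3.49 to 5.08 against 2.03 to 2.95, and these genes are the members with an unadjusted p under 0.05.

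Promoters are shown for 3 of these genes and for Alb, the serum albumin gene of liver, because the results turn on neutrophil and liver transcripts. Sequences are RefSeq's, build GRCm38.p6, from 250 bases before to 50 after the start of the gene, read 5′ to 3′ on the strand of the gene. Capitals mark TTGCNNAA, a form of the site bound by C/EBP factors, which act in both granulocytes and hepatocytes, searched on both strands. S100a8 (chr3:90668821-90669120, plus strand) held no match. S100a9 (chr3:90695672-90695971, minus strand), Mmp8 (chr9:7558179-7558478, plus strand) and Alb (chr5:90460620-90460919, plus strand) held 1 each, beginning at positions −236, −19 and −94 from the start.
S100a8: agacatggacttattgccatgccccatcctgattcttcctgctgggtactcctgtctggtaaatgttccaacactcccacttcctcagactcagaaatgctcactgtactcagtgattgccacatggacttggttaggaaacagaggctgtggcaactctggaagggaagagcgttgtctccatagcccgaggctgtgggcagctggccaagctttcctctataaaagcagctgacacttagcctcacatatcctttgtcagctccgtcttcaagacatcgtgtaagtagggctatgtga
S100a9: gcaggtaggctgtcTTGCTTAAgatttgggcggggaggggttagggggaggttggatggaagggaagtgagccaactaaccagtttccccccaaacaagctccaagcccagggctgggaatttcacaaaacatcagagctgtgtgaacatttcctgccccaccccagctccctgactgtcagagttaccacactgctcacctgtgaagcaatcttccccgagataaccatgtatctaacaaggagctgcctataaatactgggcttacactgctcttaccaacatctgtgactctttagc
Mmp8: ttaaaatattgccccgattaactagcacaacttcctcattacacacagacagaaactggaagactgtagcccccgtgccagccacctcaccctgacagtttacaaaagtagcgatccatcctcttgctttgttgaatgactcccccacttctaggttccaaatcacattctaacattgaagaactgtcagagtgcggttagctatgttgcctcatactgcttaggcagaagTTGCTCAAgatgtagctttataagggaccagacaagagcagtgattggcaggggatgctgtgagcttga
Alb: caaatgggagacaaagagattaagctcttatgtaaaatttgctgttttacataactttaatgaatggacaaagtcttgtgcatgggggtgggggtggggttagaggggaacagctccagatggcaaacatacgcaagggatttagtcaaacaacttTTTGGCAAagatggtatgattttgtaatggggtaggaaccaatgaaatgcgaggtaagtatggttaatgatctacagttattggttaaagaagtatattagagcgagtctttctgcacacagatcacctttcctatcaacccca
These letters occur in 10.8% of all 32851 promoters of the same length, in 7 of the 17 promoters found for the 18 neutrophil genes (41.2%) and in 11 of 32 found for 31 of 35 liver genes (34.4%). Both sets hold only genes measured here, from lists chosen with results of these data known, and the shares were not tested against each other. A match describes the letters only, and an absence says nothing of the factor.

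Some other genes of myeloid cells also stood higher. Trem3 and Cd300a were picked among the smallest p-values on the higher side, so their side was set by the choice. Il1r2 was picked for the smallest p-value of its list. Of 14 markers of osteopontin and lipid-laden macrophages 11 differences were negative, at a median of −0.195. Trem3, a receptor of the TREM family on mouse myeloid cells, was at −1.90, −1.65 and −2.46 in RCF lungs, against −3.47, −3.40 and −3.17 in CCF lungs, a difference of 1.34 ± 0.24 without overlap (limma adjusted p = 0.402). Cd300a, an inhibitory receptor of leukocytes, differed by 0.89 ± 0.18, with means of 0.72 ± 0.26 in RCF and −0.17 ± 0.07 in CCF (SD, n = 3 each). Il1r2, the decoy receptor for interleukin 1, differed by 2.01 ± 0.58 (4.04-fold). Il1b itself differed by 1.17 ± 0.54 and the arrays overlapped, RCF 3 at 0.57 lying below CCF 1 and CCF 3.

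Ccr3, the eotaxin receptor of eosinophils, was at −2.39, −3.12 and −3.11 in RCF lungs, against −4.55, −3.47 and −4.20 in CCF lungs. That difference of 1.20 ± 0.28 stood alone in its list of 14 eosinophil, basophil and mast cell markers. There 1 of 14 was higher at an unadjusted p under 0.05 (5.88% of all genes), and the median was 0.06. Of 15 markers of monocytes and interstitial macrophages 2 were higher (5.88% of all genes) and 1 lower (3.38%), 9 of the 15 differences were negative and the median was −0.09. Ccr2, the receptor by which monocytes leave the marrow, differed by 0.87 ± 0.31 without overlap, and Plac8 by 0.70 ± 0.26 with overlap.

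Of 23 chemokine genes measured, 0 were higher (5.88% of all genes) and 3 lower (3.38%) in RCF lungs by unadjusted p. In 5 the RCF arrays lay wholly below the CCF arrays (7.11% of all genes), and the median was −0.41. Cxcl16, a membrane-bound chemokine, was among the 3, with a difference of −0.40 ± 0.16. Cxcl1, a ligand of CXCR2, was at −2.44, −2.56 and −3.0 in RCF lungs, against −1.93, −2.17 and −1.95 in CCF lungs, a difference of −0.65 ± 0.44 that did not pass at an unadjusted p of 0.05. Nor did Ccl2, the main ligand of CCR2, which differed by −0.61 ± 0.43 without overlap. Within slide 1 the Ccl2 difference was −0.16.

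Transcripts of liver were high on RCF 1 and 2, while the list's median on RCF 3 lay within the range of the controls. The list of 45 liver genes was added after these values had been seen. Of the 35 measured, 25 were higher (5.88% of all genes) and 0 lower (3.38%) in RCF by unadjusted p. In 17 the RCF arrays lay wholly above CCF (8.8% of all genes), and the list's median difference was 3.04 (8.21-fold). A gene counted as measured if above background on 3 arrays of any group, which the RCF arrays alone can supply. Which liver genes were measured could thus depend on their level in RCF, and these shares carry that limit. With the stricter filter, above background on all RCF and CCF arrays, the list's median was 1.08. Mup19, of the major urinary proteins that liver secretes, was at 4.57, 4.31 and −2.05 in RCF lungs, against −6.07, −6.20 and −7.40 in CCF lungs, where no array was above background. RCF 1 and 2 lay close to each other and far above RCF 3, which itself lay above the CCF arrays. Against the background level of the CCF arrays the RCF mean was at least 285-fold higher (limma adjusted p = 0.402 for the measured difference of 8.83 ± 1.66). For Mup4, at 2.71, 2.96 and −3.22 in RCF lungs and not above background on any CCF array, it was at least 105-fold higher. Probes for the Mup genes may share signal, since the copies are nearly identical.

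Alb, serum albumin, was at 1.83, 1.70 and −2.71 in RCF lungs, against −3.15, −3.37 and −3.78 in CCF lungs, a difference of 3.70 ± 0.98. RCF 3 was the RCF array nearest to the CCF arrays, and a second Alb probe gave 3.61 ± 1.01. Ambp, the alpha-1-microglobulin and bikunin precursor, was at −0.67, −0.38 and −6.54 in RCF lungs and not above background on any CCF array. Its RCF mean was at least 10.4-fold above the background level of the CCF arrays, although RCF 3 lay among the CCF values. Bhmt, betaine-homocysteine methyltransferase of liver, was at least 9.27-fold higher in RCF by the same measure, with RCF 3 at −6.04. Relative to the control mean the list's median was 4.65, 4.78 and 0.42 on RCF 1 to 3 and 0.17, 0.24 and −0.75 on CCF 1 to 3. The log2 of its summed signal ran from 2.52 to 6.76 in RCF, from 1.96 to 2.99 in CCF and from 1.64 to 3.05 in control. RCF 1 and 2, the arrays with the liver transcripts, are also those with the higher values of S100a8, S100a9, Stfa2 and Clec4d, and the part of one in the other was not tested. Without RCF 3, which leaves RCF 1 and 2, 25 genes passed limma, all higher. Of these 21 had a symbol, among them Alb (adjusted p = 0.0056), Mup19 (0.00879), S100a8 (0.0171), S100a9 (0.0204) and Stfa2 (0.0389). That fit takes RCF 1 and 2 as separate animals, and whether these 2 close arrays hold one RNA was not tested. With RCF 1 and 2, and control 1 and 4, averaged no gene passed. Without RCF 1 the count was 2, and without RCF 2 it was 0 (1709 at an unadjusted p under 0.05). With RCF 1 and 2 averaged the median of the liver list was 2.32 and that of the neutrophil list 0.60.

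**Figure D3:**
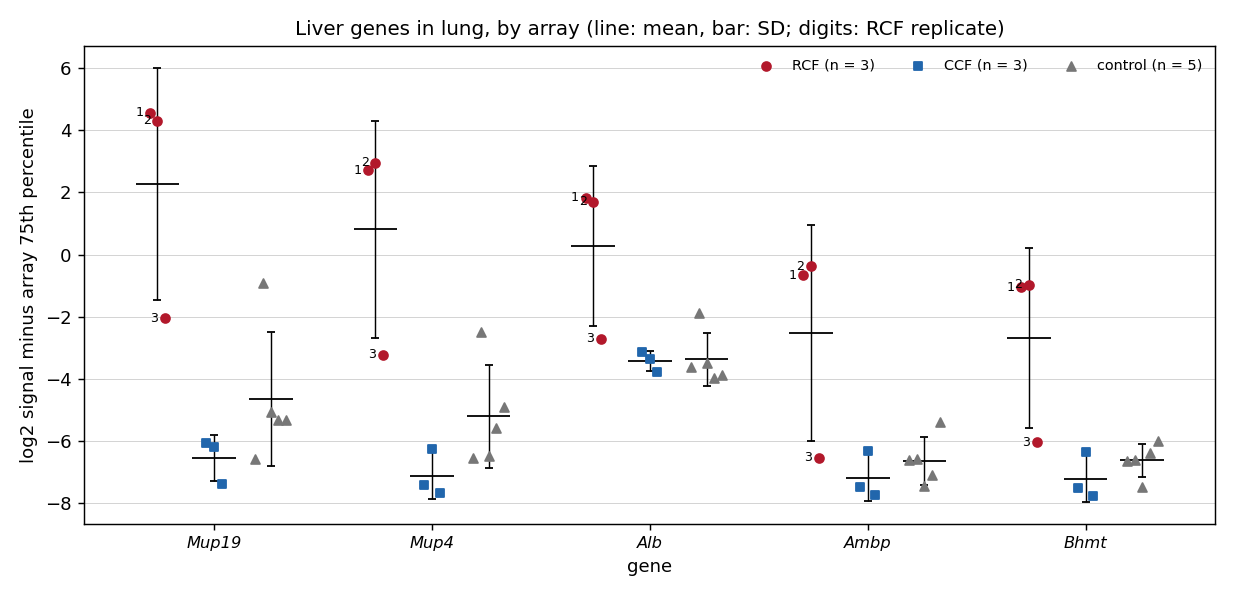
Level of 5 liver genes (horizontal axis) as log2 signal minus the array's 75th percentile (vertical axis) in RCF (n = 3, replicate numbers beside the points), CCF (n = 3) and control lungs (n = 5); lines are means and bars SD. RCF 1 and 2 lie side by side for each gene, Mup19 at 4.57 and 4.31, and RCF 3 below them at −2.05, against −7.40 to −6.07 in CCF.

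Mitotic genes stood lower in RCF lungs. Of 24 measured, 8 had lower levels with an unadjusted p below 0.05 (3.38% of all genes) and 0 higher ones (5.88%). In 10 the RCF arrays lay wholly below the CCF arrays (7.11% of all genes), and all 24 differences were negative, at a median of −0.38 (1.31-fold). Plk1, the polo-like kinase of spindle assembly, was at −1.13, −1.43 and −1.53 in RCF lungs, against −0.43, −0.73 and −0.68 in CCF lungs. The arrays did not overlap, and the difference was −0.75 ± 0.20 (1.68-fold, limma adjusted p = 0.428). Ccnb1, the cyclin that drives entry into mitosis, was at −3.41, −3.45 and −3.61 in RCF lungs, against −2.83, −2.98 and −2.86 in CCF lungs. Its difference of −0.60 ± 0.25 came with spreads of 0.11 in RCF and 0.08 in CCF (SD, n = 3 each), while the controls spread over 0.41 (SD, n = 5).

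Mki67, the Ki-67 gene of cycling cells, was at 0.20, 0.09 and −0.08 in RCF lungs, against 0.39, 0.41 and 0.56 in CCF lungs, a difference of −0.38 ± 0.17 without overlap. Birc5, survivin of the chromosomal passenger complex, differed by −0.43 ± 0.19 and Shcbp1, a midbody gene, by −0.47 ± 0.19. A second Birc5 probe gave 0.01 ± 0.23. RCF means lay near control for Plk1 (−1.36 ± 0.21 in RCF, −0.61 ± 0.16 in CCF, −1.28 ± 0.29 in control) and for Mki67 (0.07 ± 0.14, 0.45 ± 0.09 and 0.01 ± 0.25 in the same order). The list's median was −0.15 within slide 1, −0.17 with slide as a fixed block and −0.42 with RCF 1 and 2 averaged. Of 19 replication genes measured 1 was higher (5.88% of all genes) and 0 lower (3.38%) by unadjusted p. In this list 14 differences were negative, the median was −0.11, and Mcm6 of the replicative helicase differed by −0.23 ± 0.12.

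**Figure D4:**
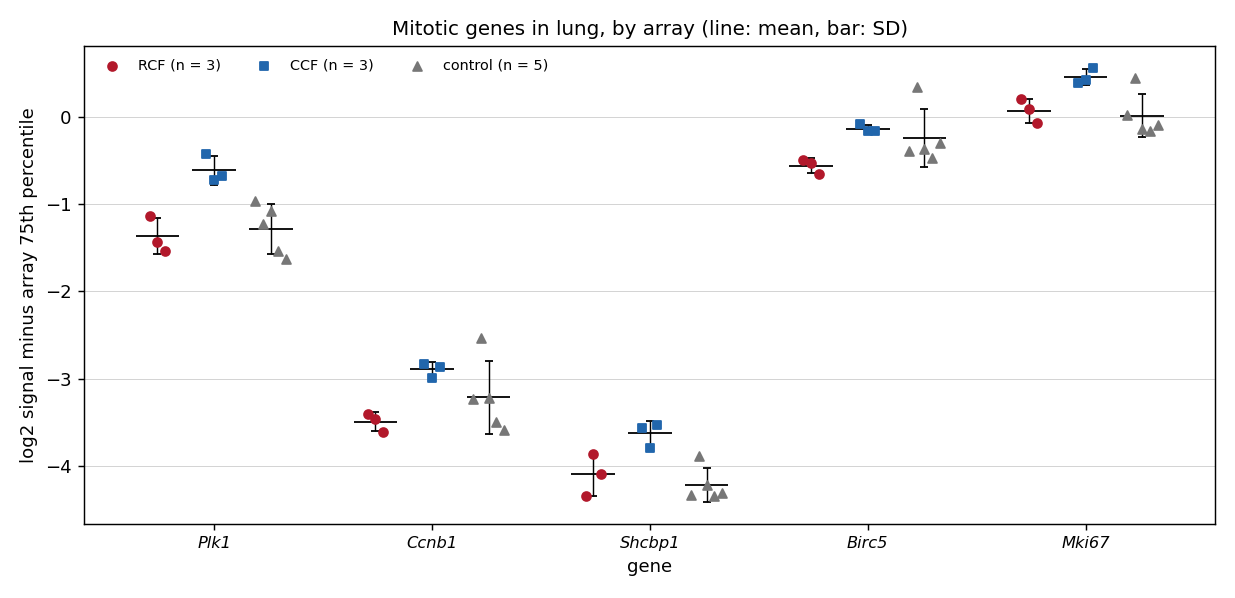
Level of 5 mitotic genes (horizontal axis) as log2 signal minus the array's 75th percentile (vertical axis) in RCF (n = 3), CCF (n = 3) and control lungs (n = 5); points are arrays, lines means and bars SD. The RCF arrays lie below the CCF arrays for each gene shown, Plk1 at −1.53 to −1.13 against −0.73 to −0.43. Plk1 and Shcbp1 were picked for the smallest p-values of their list, and the others after their values were seen. Of the 24 mitotic genes measured, 10 had RCF arrays wholly below the CCF arrays (7.11% of all genes).

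Genes of immune signalling lay on both sides. Of 15 NF-kB targets and feedback genes 2 were higher (5.88% of all genes) and 2 lower (3.38%) by unadjusted p, with a median of −0.09. Nfkbia, the inhibitor that NF-kB induces against itself, was at 4.87, 5.33 and 5.46 in RCF lungs, against 4.62, 4.68 and 4.48 in CCF lungs (difference 0.63 ± 0.20, limma adjusted p = 0.472). Icam1, the adhesion molecule that leukocytes bind on endothelium, was at 0.35, −0.53 and −0.94 in RCF lungs, against 0.89, 0.63 and 0.54 in CCF lungs (difference −1.06 ± 0.26, limma adjusted p = 0.428). RCF 1, on the slide of CCF 1 and 2, was the closest to them for both genes, and within that slide the differences were 0.22 and −0.42.

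Stat2 and Irf9, which form the transcription complex of type I interferon signalling, differed by −0.54 ± 0.14 and −0.35 ± 0.15, each without overlap. Stat2 was at 2.74, 2.61 and 2.52 in RCF lungs and at 3.27, 3.04 and 3.17 in CCF lungs, with controls lower still at a mean of 2.31 ± 0.12 (SD, n = 5). A second Stat2 probe gave 0.43 ± 0.75. Of 21 interferon-stimulated genes in all 0 were higher (5.88% of all genes) and 2 lower (3.38%), and the median was 0.05. Of 13 genes of MHC class II and dendritic cells 0 were higher (5.88% of all genes) and 2 lower (3.38%). The 2 were H2-Eb1 (−0.55 ± 0.18) and H2-Ab1 (−0.33 ± 0.15), the beta chains that present antigen. Cd74, the invariant chain, differed by −0.49 ± 0.24 and overlapped. Zap70, the kinase of the T cell receptor, differed by −0.41 ± 0.18 while 1 of 18 T and NK cell markers was lower (3.38% of all genes).

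In the airways, Clca1, a secreted regulator of mucus made by goblet cells, was at −1.55, −1.66 and −5.30 in RCF lungs, against 2.73, −1.08 and 1.21 in CCF lungs. The groups did not overlap by a narrow margin between RCF 1 and CCF 2, and the difference was −3.79 ± 1.12 (13.8-fold, limma adjusted p = 0.461). It was the 1 gene of 14 airway secretory markers with an unadjusted p under 0.05 (9.26% of all genes), and Scgb1a1 showed a difference of 0.00. Gmnc, geminin coiled-coil domain containing, which starts multiciliated cell fate, was at −2.88, −3.18 and −3.52 in RCF lungs, against −2.38, −2.16 and −2.48 in CCF lungs. Both groups lay above the controls, whose mean was −4.32 ± 0.18 (SD, n = 5), and the difference between the fibres was −0.85 ± 0.25. Of 17 ciliated cell genes 0 were higher (5.88% of all genes) and 1 lower (3.38%), at a median of −0.16. Among 17 alveolar type 2 genes Etv5, a transcription factor of those cells, was higher by 0.34 ± 0.13.

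Other fixed genes cover macrophages, matrix and responses to particles. Spp1, osteopontin, differed by −0.21 ± 0.27 (95% interval −0.80 to 0.39) and Gpnmb, a glycoprotein of lipid-laden macrophages, by −0.27 ± 0.32 (−0.98 to 0.44). Mmp12, the macrophage elastase, differed by −0.51 ± 0.48 (−1.56 to 0.54), Chil3, the chitinase-like protein of mouse alveolar macrophages, by −0.09 ± 0.24 (−0.63 to 0.44), and Col1a1, the chain of type I collagen, by 0.17 ± 0.29 (−0.47 to 0.80). Timp1, an inhibitor of metalloproteinases, differed by −0.13 ± 0.28 (−0.74 to 0.48). Hmox1, heme oxygenase 1, differed by −0.19 ± 0.21 (−0.64 to 0.26) although its arrays did not overlap. Saa3, an acute phase protein of the lung, was at −1.15, −1.22 and −2.44 in RCF lungs, against −1.68, 0.58 and 0.21 in CCF lungs, and the groups overlapped through CCF 1. Its difference was −1.31 ± 0.57 (−2.54 to −0.07), with a limma unadjusted p of 0.040 and an adjusted p of 0.522. Cyp1a1, the enzyme that the aryl hydrocarbon receptor induces, differed by −0.92 ± 0.59, CCF 3 at 1.48 standing apart from the other 5 arrays, and within slide 1 the difference was 0.02.

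Among genes outside these lists, the smallest unadjusted p-values on the lower side belonged to Tspan9, Ddx43 and Hlx. Tspan9, a tetraspanin, was at −1.90, −2.80 and −3.06 in RCF lungs, against −1.18, −1.45 and −1.10 in CCF lungs, a difference of −1.34 ± 0.27 (limma adjusted p = 0.402). A second Tspan9 probe gave 0.26 ± 0.34. Hlx, a homeobox factor, differed by −1.21 ± 0.25 and Ddx43, a DEAD-box helicase gene, by −0.75 ± 0.15. Upf1, the helicase of nonsense-mediated decay, was at −0.16, −0.60 and −0.63 in RCF lungs and at 0.33, 0.11 and 0.16 in CCF lungs, with controls beside the CCF arrays at 0.04 to 0.19. Ucp3, a mitochondrial carrier, differed by −1.32 ± 0.29, Zfp219, a zinc finger gene, by −1.54 ± 0.34 and Apbb1, an adaptor of the amyloid precursor protein, by −1.11 ± 0.26. For Ucp3, Apbb1, Upf1 and Tspan9 RCF 1 lay nearer to the CCF arrays than RCF 2 and 3 did, and the differences within slide 1 were −0.62, −0.38, −0.38 and −0.58.

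On the higher side, C2cd4d was at −4.31, −4.82 and −4.94 in RCF lungs, above background on 2 arrays, and on no CCF array above it. Bcl9, a coactivator of beta-catenin, was at −4.57, −3.79 and −4.24 in RCF lungs, also above background on 2 arrays and on no CCF array. Amer2, a regulator of Wnt signalling, differed by 1.17 ± 0.22. Gadd45a, a p53 target, differed by 0.77 ± 0.25 and belongs to a list of 16 p53 target and DNA damage genes. Of these 1 was higher (5.88% of all genes) and 1 lower (3.38%) by unadjusted p. In that list 11 differences were negative and the median was −0.16. A list of 8 genes that rise and fall together from array to array, picked earlier on these same arrays, was higher in RCF for 8 of 8 at a median of 2.40. All 8 had an unadjusted p under 0.05 (5.88% of all genes were higher). Since they were picked for moving together, the 8 are not separate observations. Rhox3a, a homeobox gene of the reproductive tract, was at −0.84, 1.24 and 1.33 in RCF lungs, against −3.0, −1.33 and −4.12 in CCF lungs. Mrgprg, a receptor of the Mas-related family, differed by 2.51 ± 0.77. Control means were 1.79 for Rhox3a and 4.04 for Mrgprg, above the means of both fibre groups. Within slide 1 the median of these 8 was 1.25, and with RCF 1 and 2 averaged 2.55.

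Of 15 zinc finger and chromatin repressor genes 0 were higher (5.88% of all genes) and 4 lower (3.38%), at a median of −0.27. Scai, a nuclear repressor of transcription, was at −2.40, −2.60 and −2.14 in RCF lungs, against −1.55, −1.22 and −1.26 in CCF lungs, with all 5 controls below the CCF arrays (−3.73 to −2.56) and 1 of them above RCF 2. A second Scai probe gave −0.03 ± 0.24. Of 9 erythroid genes 1 was lower (3.38% of all genes), Hbb-b1 of adult beta-globin (−1.25 ± 0.57), whose probe near-identical globin copies may share. Alas2, the erythroid enzyme of heme synthesis, differed by −1.15 ± 0.68 with no overlap. Of 14 heat shock genes 0 passed an unadjusted p of 0.05 (9.26% of all genes), and 5 had RCF arrays wholly below the CCF arrays (7.11% of all genes). Hspa1a, an inducible chaperone, was at 1.69, 1.58 and 1.07 in RCF lungs and at 2.49, 2.76 and 3.23 in CCF lungs, while the controls ran from −0.04 to 2.77. Per2, a clock gene, showed −0.49 ± 0.28 without overlap, and its second probe, on no CCF array above background, 1.37 ± 0.59. Lamp2, a lysosomal membrane protein, differed by −0.38 ± 0.13 and its second probe by 0.04 ± 0.14.

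**Figure D5:**
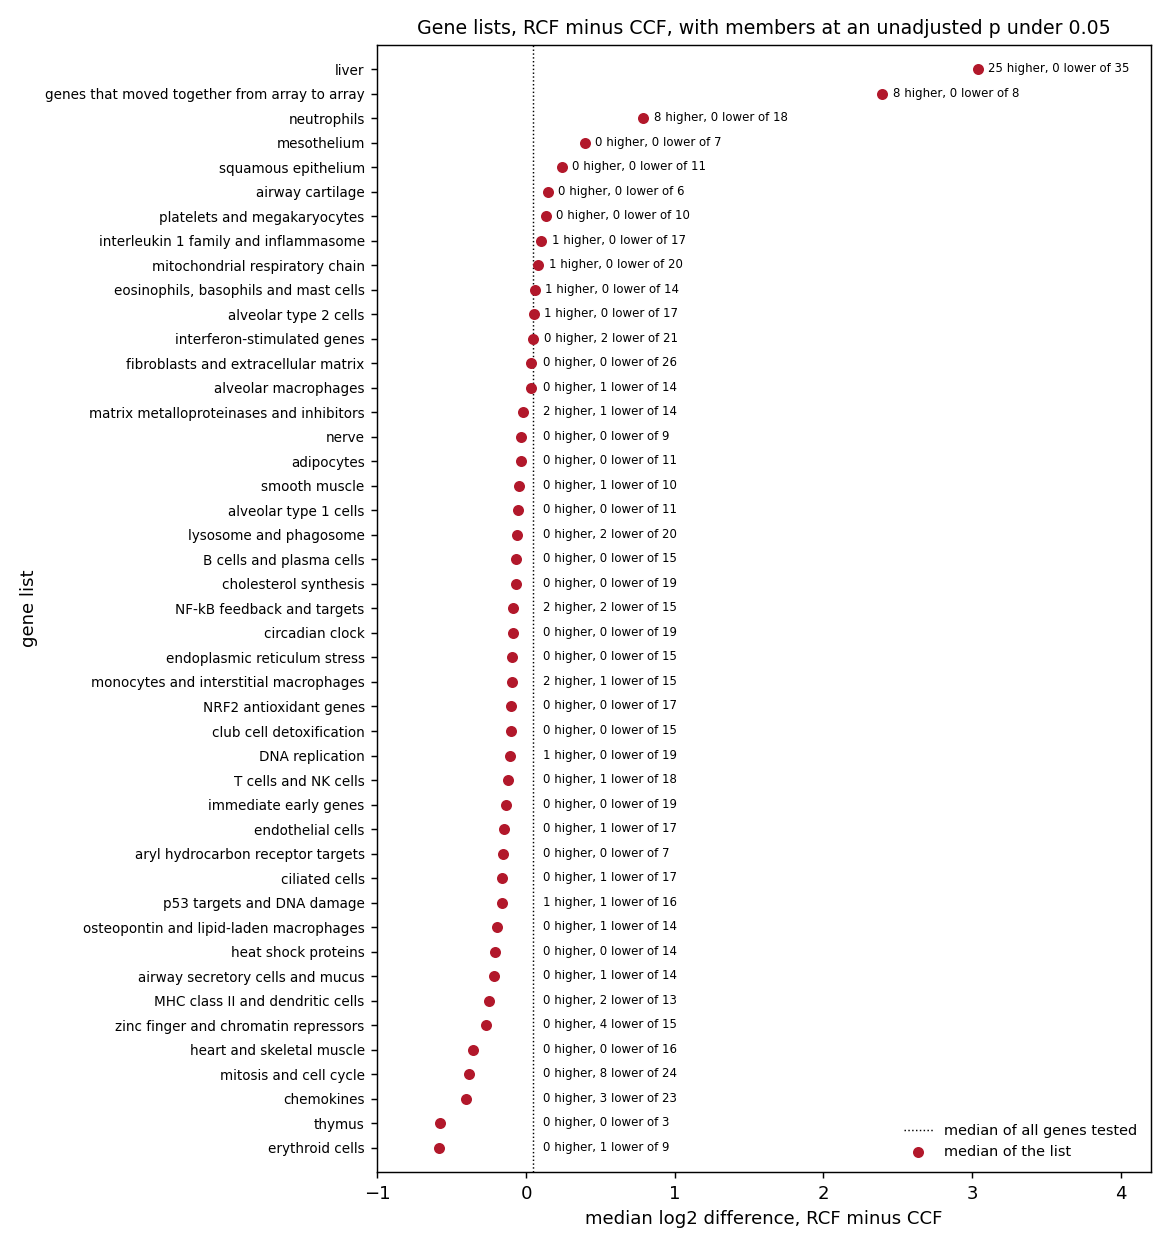
Median log2 difference, RCF minus CCF, over the measured members of 45 gene lists (horizontal axis), with the number of members on each side at unadjusted p under 0.05 written beside each and the median of all genes tested (0.04) as a dotted line. Liver genes (3.04), genes that move together from array to array (2.40) and neutrophil genes (0.79) stand to the right. The liver list was added after its values were seen, and the genes that move together were picked on these same arrays.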

How the data were processed

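Lung RNA was measured on 1-colour Agilent arrays (Feature Extraction, per the file headers). The authors' deposited scanner files hold the processed signal, a background-subtracted intensity, and the deposited value table holds log2 values that differ from it by 1 constant per array. Here log2 of the processed signal was set against each array's 75th percentile, control and outlier spots were left out, and a probe was kept if flagged as above background on 3 or more of the 14 arrays (37984 of 56605 probes), with the brightest probe per gene. limma 3.58.1 in R 4.3.3 was fitted over 14 arrays and 4 groups without covariates, with Benjamini-Hochberg adjustment over 30574 genes, and was tested on simulated data. Labels call the samples independent. The number of arrays limits the precision. "At least" folds set the RCF mean against the CCF values, each raised, where lower, to the lowest signal well above background on its array. They describe the mean of the 3 RCF arrays and not each lung. Named genes were the 8 higher and 8 lower genes of smallest p, up to 2 per list and 20 fixed genes, with exceptions stated, and some genes the rule takes are not reported here. Members and lists were chosen with earlier results of these data known. Same-numbered RCF and CCF samples had residual correlations of 0.295, −0.443 and 0.209, so numbers were not taken as pairs. The normexp alternative used median signals.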

Additional observations from a re-analysis of the deposited data

Results flagged for a closer look

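Among 121 sets of 5 control values, 1 control array stood apart from the other 4 in 10 sets by Dixon's test, which chance gives in about 1 set in 20. Control 2 was the high array for Mup19 at −0.92 (next −5.08), Alb at −1.89, Birc5 at 0.34, Shcbp1 at −3.88 and Clca1 at −0.26. Control 5 was high for Trem3 at −1.56. Of list medians relative to the control mean, control 2 stood high for squamous epithelium at 5.10, mesothelium at 0.88 and NRF2 antioxidant genes at 0.24, and control 3 for zinc finger and chromatin repressors at 0.19.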

How the results depend on the processing

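The count of 1 gene was also reached with the 75th percentile taken over probes above background on all arrays. It was 0 with the 6 arrays alone, slide as a fixed or random block, normexp, quantile or median scaling, the authors' values, no filter, the stricter filter, the mean over probes, RCF 1 and 2 averaged, and RCF 1 and CCF 2 left out, where limma gave 1302 to 3623 genes at an unadjusted p under 0.05. Array weights, which gave RCF 2 a weight of 11.9, called 2253 genes. Leaving out single arrays gave 0 to 25 genes. With the replicate block 1 gene passed, A_30_P01023506, another than in the fit without it. Median scaling moved the median of all genes to −0.147. Over all alternatives S100a8 ranged from 1.46 to 2.49, Cxcr2 from 1.86 to 2.97, Mup19 from 5.92 to 11 and Plk1 from −0.94 to −0.47. Median differences of lists moved by over 1.5 times for neutrophils (1.39 with the stricter filter, 1.37 with array weights, 1.34 within slide 1, 0.36 without RCF 1 and CCF 2), mitosis (−0.17 with slide fixed, −0.19 with normexp, −0.58 with median scaling, −0.15 within slide 1) and liver (1.08 with the stricter filter). Also past 1.5 times, genes that moved together ranged from 1.25 to 3.37, chemokines from −0.60 to −0.19 and zinc finger genes from −0.46 to −0.11. Signs of these 6 lists held under every alternative run. Signs turned, among other lists, for interferon-stimulated genes (−0.14 to 0.15), NF-kB genes (−0.28 to 0.14), eosinophils, basophils and mast cells (−0.13 to 0.38) and monocytes (−0.28 to 0.099). They turned too for airway secretory cells (−0.61 to 0.081), erythroid cells (−0.78 to 0.095), DNA replication (−0.30 to 0.0066) and alveolar type 2 cells (−0.14 to 0.14). The same held for T and NK cells (−0.31 to 0.0021), the circadian clock (−0.28 to 0.12) and p53 targets (−0.35 to 0.10).

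Signs turned without single arrays, as ranges over the arrays left out, for Csf3r (−0.21 to 0.18, also 0.07), Lcn2 (−0.33 to 0.068), Camp (−1.80 to 0.080), Ngp (−2.91 to 0.17), Timp1 (−0.38 to 0.17), Col1a1 (−0.046 to 0.36) and Chil3 (−0.18 to 0.043). Without RCF 1 and CCF 2 Csf3r was 0.12 and Chil3 0.028. With slide fixed Ngp was 0.52, Timp1 0.11 and Col1a1 −0.14, and Col1a1 was −0.020 with slide random and −0.023 with median scaling. Within slide 1, with no test, Ngp was 2.66, Timp1 0.35 and Camp 0.19. Lcn2 was 0.11 with array weights, Ddx43 0.035 with normexp and Per2 0.44 as the mean over probes. The cause was not tested.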
